A study of Mus musculus with 94 samples.

Results

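The genes described here are the collagens, taken as every symbol made of Col, a type number, the letter a and a chain number whose mean over the 47 libraries of a fat depot was at least 0.5 CPM (counts per M of the library total). Of 44 such symbols among 20411 genes, 35 were members in epididymal fat (eWAT), 36 in inguinal fat (iWAT), 37 in either and 34 in both. The RNA came from male C57BL/6JBomTac mice, both depots from each mouse. Obese mice (n = 5) received a high-fat diet from 10 weeks of age for 18 weeks. Regression mice received it as long and were then given a low-fat diet for 2, 6 or 12 weeks (n = 6 at each time). Each of these 4 groups had 6 lean mice of its own age, kept on the low-fat diet throughout; by these figures the ages were 28, 30, 34 and 40 weeks. All mice, the obese ones included, had been on the low-fat diet before the study diets began, and no mouse stayed on the high-fat diet beyond 18 weeks, so the regression groups have no obese group of their own age. Mice were housed 3 to an enclosure unless separated, and which mice shared one is not given here; p-values measure the spread between mice.

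Collagens are proteins of several chains wound around each other, and each gene encodes one kind of chain. Types I, III and V form the banded fibrils of connective tissue, and the FACIT collagens sit on the surface of such fibrils. Type VI forms beaded microfibrils close to cells, and type IV forms the sheet of basement membrane that surrounds every adipocyte and vessel. In fat tissue the chains are made largely by fibroblasts and progenitors, with basement membrane chains also made by adipocytes and vessel cells, and a fat pad gains matrix as it grows.

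The starts of the genes on which the results below turn are shown by the 250 bases before the annotated start, from RefSeq (GRCm38.p6), written on the strand of the gene. 35 of the 44 symbols and 30 of the 37 members were found in that table; Col1a1, Col4a3, Col5a2, Col9a3, Col12a1, Col14a1 and Col26a1 were not. Col1a2 lies at chr6:4505368-4505617 on the plus strand and Col3a1 at chr1:45311288-45311537 on the plus strand; these encode fibril chains that were high in obesity. Col6a3 lies at chr1:90843972-90844221 on the minus strand, and was the 1 member called in eWAT at all 4 times, with limits given below. Col15a1 lies at chr4:47207762-47208011 on the plus strand, and was low in eWAT at 2 weeks. Capitals mark a CCAAT box, the GC box letters GGGCGG or the TATA box letters TATAAA, each searched on both strands.
Col1a2: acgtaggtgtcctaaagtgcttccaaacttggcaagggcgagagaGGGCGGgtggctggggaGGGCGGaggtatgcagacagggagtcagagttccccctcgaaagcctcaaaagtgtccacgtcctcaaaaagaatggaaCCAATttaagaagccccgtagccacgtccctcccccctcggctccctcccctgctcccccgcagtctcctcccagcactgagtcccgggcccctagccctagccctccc
Col3a1: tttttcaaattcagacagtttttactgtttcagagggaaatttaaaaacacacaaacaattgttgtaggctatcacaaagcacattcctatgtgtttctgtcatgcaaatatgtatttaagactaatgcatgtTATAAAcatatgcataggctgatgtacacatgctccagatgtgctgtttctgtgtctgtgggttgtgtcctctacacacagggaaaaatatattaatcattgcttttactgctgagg
Col6a3: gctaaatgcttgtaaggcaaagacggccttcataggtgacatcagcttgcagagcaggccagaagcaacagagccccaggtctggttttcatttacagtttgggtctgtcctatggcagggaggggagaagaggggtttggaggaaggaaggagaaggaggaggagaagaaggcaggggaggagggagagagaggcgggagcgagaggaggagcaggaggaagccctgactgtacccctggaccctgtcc
Col15a1: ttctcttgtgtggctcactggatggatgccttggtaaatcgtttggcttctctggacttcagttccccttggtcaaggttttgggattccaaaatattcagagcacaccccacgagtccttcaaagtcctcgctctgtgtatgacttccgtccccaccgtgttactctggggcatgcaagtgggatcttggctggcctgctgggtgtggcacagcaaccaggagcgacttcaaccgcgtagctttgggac
In Col1a2 a CCAAT lay 109 bases before the start and a GGGCGG at 205 and at 188 bases before it. Col3a1 held a TATAAA at 117 bases before the start, and no match was found in the windows of Col6a3 and Col15a1. Of the 30 members with a sequence, 11 held CCAAT (36.7%), 19 held GGGCGG (63.3%) and 4 held TATAAA (13.3%: Col3a1, Col11a2, Col13a1 and Col17a1). Among all 32851 promoters of the table the shares were 33.8%, 32.7% and 12.4%. These are counted per promoter, whereas a member with several promoters, such as Col18a1, counted if any of them held the letters.

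The 6 type IV genes lie as head-to-head pairs, transcribed away from each other. The starts of Col4a4 and Col4a3, on chromosome 1, are 72 bases apart, and the 71 bases between them (chr1:82586850-82586920, strand of Col4a4) are shown because both genes were low together in the comparisons below.
Col4a4-Col4a3: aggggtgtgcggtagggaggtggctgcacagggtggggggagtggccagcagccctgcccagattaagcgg
Col4a6 and Col4a5, on the X chromosome, start 1309 bases apart. Col4a1 and Col4a2, on chromosome 8, overlap at their starts by GENCODE M21. No source used here gives the strand setting of the counting, so reads from such an overlap cannot be assigned to 1 of the genes.

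The eWAT libraries held 1.32 to 25.9 M counts each, the iWAT libraries 6.27 to 34.3 M. Every library carried the adipocyte markers (Adipoq, Plin1, Cidec, Lipe and Fabp4), whose summed level was 9185 to 20458 CPM in eWAT and 8119 to 17172 CPM in iWAT. Markers of other organs or of B cells were high in some libraries. In eWAT duct markers exceeded 100 CPM in 4 libraries, markers of B cells in 2 (up to 125 CPM) and of skeletal muscle in 1 (166 CPM). In iWAT the markers of skeletal muscle did so in 31, of B cells in 7 and of skin in 1 of 47 libraries. Whether the B cell markers came from lymph node or from cells within the fat was not tested. Genes of ciliated epithelium (Foxj1, Dnah5, Dnah11, Ccdc153 and Epcam, a list chosen after the values were seen) ran from 0.173 to 466.99 CPM in eWAT, over 100 CPM in 18 libraries, and reached 3.67 CPM in iWAT. Results that change without these libraries are given with the values beside them. In whole tissue, fewer cells of a type and less RNA per cell cannot be told apart.

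In lean mice the leading collagen genes differed between the depots. Levels between genes are compared per kilobase of merged exons (GENCODE M21), over the 24 lean mice. In eWAT the order began with the basement membrane chains Col4a2 at 113 ± 18.4 and Col4a1 at 91.0 ± 13.9 CPM per kb (SD), followed by Col15a1 at 67.8 ± 14.4, Col6a1 at 62.9 ± 13.4, Col5a3 at 61.0 ± 14.8 and Col3a1 at 46.0 ± 8.85 CPM per kb. In iWAT it began with the fibril chain Col3a1 at 131 ± 63.7 CPM per kb, followed by Col4a2 at 107 ± 23.5, Col6a1 at 96.2 ± 34.3, Col4a1 at 96.2 ± 20.6, Col1a1 at 95.9 ± 71.9 and Col1a2 at 68.4 ± 39.9 CPM per kb. In eWAT Col15a1, Col6a1 and Col5a3 lay within 1 SD of each other, and the other steps of this order exceeded the SD of both neighbours. In iWAT each step was within the larger SD of its neighbours. The type I chains were far lower in eWAT, with Col1a1 at 19.7 ± 4.18 CPM per kb.

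**Figure D1:**
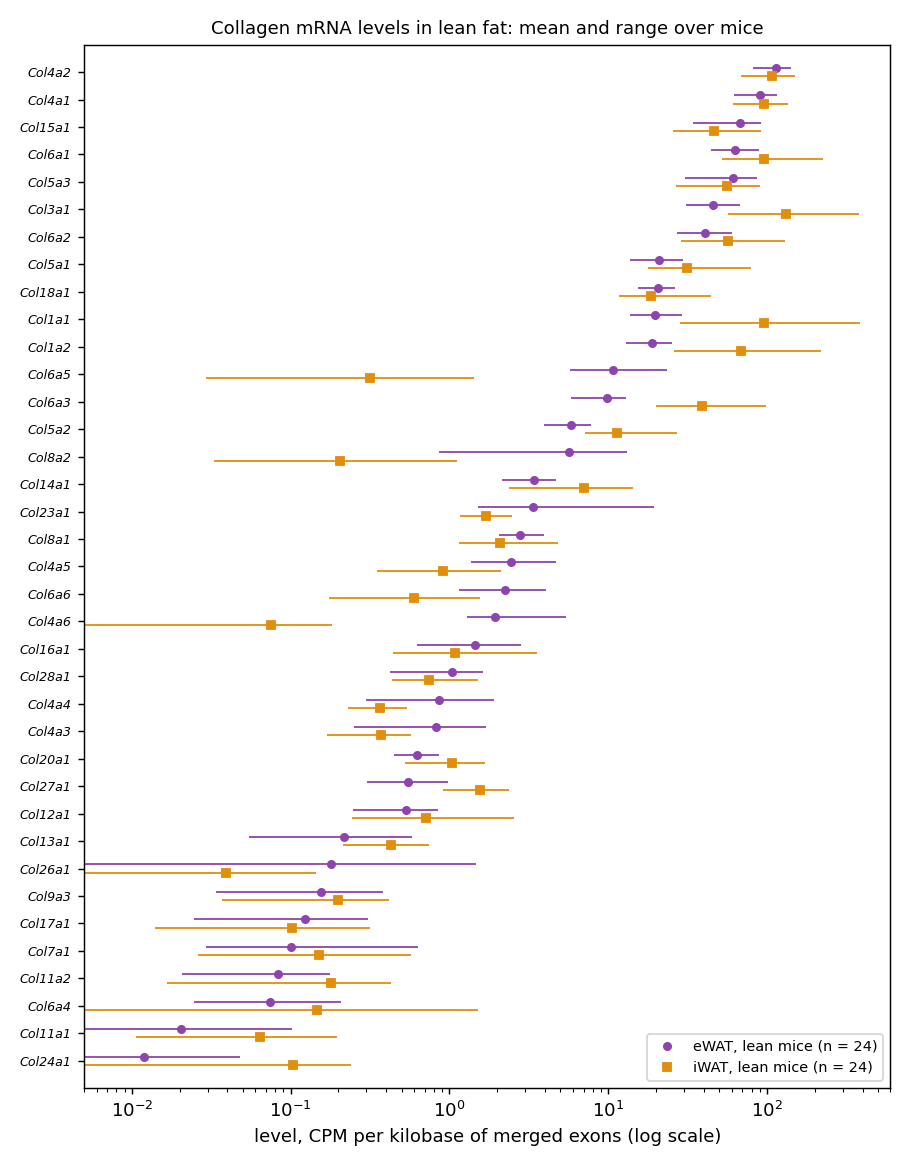
Level of each collagen gene in lean mice, as mean CPM per kilobase of merged exons on a log axis, with a line over the range of the 24 mice, in eWAT (circles) and iWAT (squares). Type IV chains lead in eWAT, where Col4a2 stands at 113 CPM per kb, and Col3a1 leads in iWAT at 131 CPM per kb; ranges that reach 0 end at the left edge.

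With mouse as a block, 31 of the 37 members differed between eWAT and iWAT of lean mice (83.8%), 13 higher in eWAT and 18 lower; of all 14749 genes tested, 59.3% differed, 28.1% higher and 31.2% lower. 9 of the 10 fibril-forming genes were lower in eWAT, and the tenth, Col5a3, did not pass the test (log2 difference eWAT minus iWAT 0.06, adjusted p = 0.344). Col1a1 was lower by 2.14 on the log2 scale, Col1a2 by 1.78 and Col24a1 by 3.23. Type VI was divided: Col6a3, the long chain of the common microfibril, was lower by 1.99, while Col6a5 was higher by 5.33 and Col6a6 by 1.91. Col4a6, a chain of specialised basement membranes, was higher in eWAT by 4.68, Col4a5 by 1.42 and Col8a2, a short-chain network collagen, by 4.51. The adjusted p of these named genes, from edgeR, ran up to 1.49e-08. Of the 37 members, Col11a1 and Col24a1 were members in iWAT alone, with 0.337 and 0.204 CPM in eWAT. Col26a1 was a member in eWAT alone, with 0.327 CPM in iWAT. The rule for members thus favoured the direction in which these genes were called, and Col24a1 lay near the floor in eWAT. Col8a2 varied widely among the lean mice, from 0.857 to 13.2 CPM per kb in eWAT and from 0.0331 to 1.11 in iWAT. The summed markers of mesothelium, the cell sheet that covers visceral fat, were 123 to 391.2 CPM in lean eWAT. In lean iWAT these markers were 2.87 to 10.0 CPM. The ciliated epithelium genes summed to 0.173 to 466.99 CPM in lean eWAT and to at most 3.67 CPM in lean iWAT. The skeletal muscle markers summed to 8.08 to 29481 CPM in lean iWAT and to 5.16 to 166 CPM in lean eWAT. The part of any of these signals in the depot difference, that of Col8a2 included, was not tested.

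No member passed the test between the oldest and the youngest lean mice. Of the lean mice, those of 12 weeks were set against those of the obesity time: edgeR called 0 of 34 members in eWAT (1 at an unadjusted p under 0.05) and 0 of 36 in iWAT (2 at an unadjusted p under 0.05). DESeq2 called 0 in either depot. Of all genes tested, 0.105% were called in eWAT and 0.496% in iWAT. The median log2 difference was 0.18 over the members tested in eWAT and 0.07 in iWAT, against 0.02 and 0.01 over all genes.

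Summed, the collagen genes took a larger share of all counts in obesity in both depots. The share was 0.744% ± 0.176 in eWAT of obese mice (SD, n = 5; 0.578 to 0.952%), against 0.403% ± 0.0627 in lean mice (n = 6). In iWAT it was 1.28% ± 0.168 in obese mice (1.10 to 1.54%), against 0.606% ± 0.113 in lean mice. In neither depot did the obese and lean mice overlap in share. At 2 weeks the eWAT share was 0.549% ± 0.160 in regression mice and 0.435% ± 0.0804 in lean mice (n = 6 each), and the iWAT share 1.27% ± 0.620 in regression mice and 0.871% ± 0.431 in lean mice. The iWAT spread at 2 weeks came with 2 libraries, regression replicate 5 at 2.44% and lean replicate 1 at 1.71%; their summed progenitor and fibroblast markers were 5472 and 2477 CPM and their macrophage markers 2984 and 1937 CPM, the part of which was not tested. At 6 weeks the shares were 0.470% ± 0.0186 against 0.423% ± 0.0632 in eWAT and 0.683% ± 0.0952 against 0.542% ± 0.155 in iWAT, regression mice against lean mice. At 12 weeks they were 0.509% ± 0.0765 against 0.453% ± 0.0510 in eWAT and 0.648% ± 0.139 against 0.623% ± 0.129 in iWAT. From 2 weeks on, regression and lean mice overlapped in both depots.

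**Figure D2:**
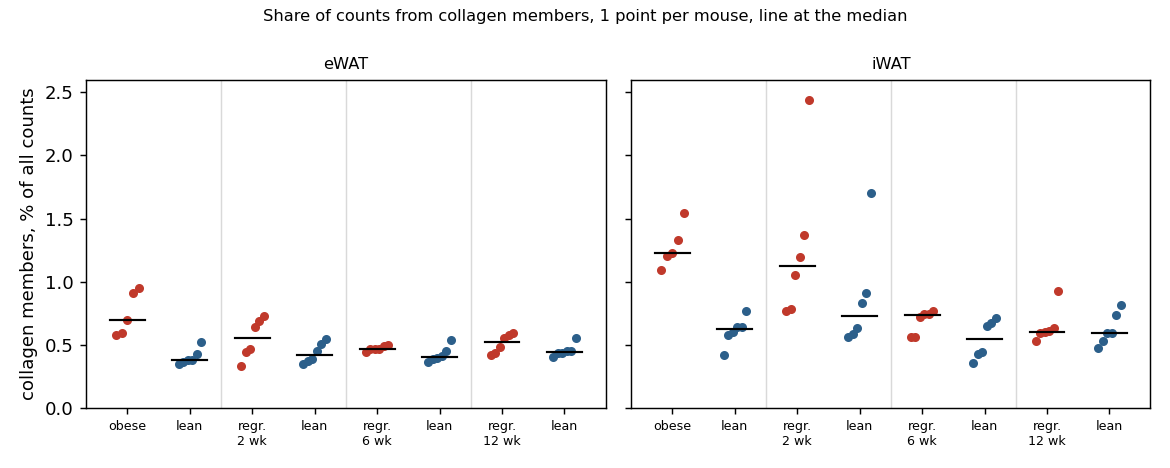
Share of all counts from the collagen genes in each mouse (points, in %) with a line at the group median, for obese or regression mice (red) left of lean mice (blue) at each time, in eWAT and iWAT. The obese mice stand apart from their lean mice in both depots (means 0.744% against 0.403% in eWAT, 1.28% against 0.606% in iWAT), and from 2 weeks on the groups overlap.

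In eWAT of obese mice 14 of the 34 collagen genes tested were higher than in lean mice and 0 lower (41.2%), against 23.4% of all 14323 genes called, 14.1% higher and 9.31% lower. The median log2 fold change was 0.58 over the members tested and -0.00 over all genes. Chains of the fibrils (5 of 8), of type VI (3 of 6) and of the FACIT group (3 of 5) made up most of the calls, with 1 of 6 type IV chains, Col18a1, and Col8a1, a network collagen of vessel walls. In 9 of them no obese mouse overlapped a lean mouse (Col1a1, Col1a2, Col5a1, Col6a1, Col6a2, Col6a3, Col12a1, Col16a1 and Col18a1), where 9.35% of all genes did not overlap. Col17a1, a member at 0.661 CPM, did not pass the filter on low counts; it and Col11a2 at 0.702 CPM lay just inside the level that defines a member in eWAT, with Col11a1 at 0.337 and Col25a1 at 0.321 CPM just outside. In iWAT Col17a1 at 0.685 and Col4a6 at 0.724 CPM lay just inside, with Col19a1 at 0.365 and Col26a1 at 0.327 CPM just outside.

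The type VI chains stood well apart. Col6a3, whose carboxy-terminal end is released as the fragment endotrophin, had 279, 540.1, 226, 509.7 and 212 CPM in the obese mice, against 91.6 to 129 CPM (median 116) in the lean mice. Every obese mouse exceeded every lean mouse (log2 fold change 1.65 ± 0.22, adjusted p = 2.57e-06). Its partners lay apart in the same way. Col6a1 had 693, 716, 503, 782 and 545 CPM in the obese mice, against 195 to 326 CPM (median 248) in the lean mice (1.36 ± 0.18, adjusted p = 1.9e-06). Col6a2 had 869.6, 904, 540.2, 891 and 579 CPM in the obese mice, against 225 to 440.2 CPM (median 312) in the lean mice (1.30 ± 0.21, adjusted p = 4.82e-05). For Col6a5, a later-described chain of the family, the obese mice had 51.8, 192, 268, 128 and 119 CPM and the lean mice 54.0 to 114 CPM (median 69.7); 1 obese mouse lay below every lean mouse and the others above every lean mouse, and the test was not passed (1.02 ± 0.43, adjusted p = 0.0815). Col6a6 (0.69, adjusted p = 0.0872) and Col6a4 (1.09, adjusted p = 0.148) did not pass either.

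Among the fibril chains, Col1a1, the chain present as a pair in type I, had 211, 347, 255, 418.6 and 172 CPM in the obese mice, against 90.6 to 157 CPM (median 120.0) in the lean mice (1.2 ± 0.22, adjusted p = 0.000145). Its partner Col1a2 had 352, 542, 468.7, 590.0 and 317 CPM in the obese mice, against 185 to 281 CPM (median 218) in the lean mice (1.00 ± 0.18, adjusted p = 0.000155). Neither overlapped between the groups. Col3a1, which forms type III and is laid into the same fibrils, had 597, 1009.9, 694, 1029 and 431.3 CPM in the obese mice, against 399.3 to 550.3 CPM (median 439.05) in the lean mice; the lowest obese mouse lay inside the lean range (0.72 ± 0.21, adjusted p = 0.00912). Col5a1, a chain of type V, which starts fibrils and limits their width, had 363, 406.5, 267, 406.7 and 256 CPM in the obese mice, against 117 to 196 CPM (median 157) in the lean mice (1.13 ± 0.17, adjusted p = 1.53e-05). All 5 obese mice were above the lean mice. Col5a2 had 82.7, 135, 70.4, 122 and 66.0 CPM in the obese mice, against 39.9 to 74.3 CPM (median 58.2) in the lean mice, with overlap (0.75 ± 0.18, adjusted p = 0.00191). Col5a3, the type V chain abundant in fat, had 465.8, 359, 240.1, 280.4 and 387 CPM in the obese mice, against 293 to 589 CPM (median 430.8) in the lean mice; the groups overlapped and the test was not passed (-0.30 ± 0.24, adjusted p = 0.396). Col27a1 (0.41, adjusted p = 0.359) and Col11a2 (0.23, adjusted p = 0.807) did not pass.

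The FACIT genes Col12a1 and Col16a1 had large fold changes at low levels. Col12a1 had 26.0, 37.2, 13.0, 36.4 and 26.6 CPM in the obese mice, against 6.41 to 11.5 CPM (median 7.96) in the lean mice (1.67 ± 0.31, adjusted p = 0.000174), and Col16a1 had 26.2, 33.8, 19.8, 29.5 and 24.3 CPM in the obese mice, against 4.53 to 19.1 CPM (median 9.17) in the lean mice (1.379 ± 0.31, adjusted p = 0.00123). The groups were apart in both genes. Col14a1 was higher too (0.69, adjusted p = 0.00592), and Col20a1 was not called, with 2.29, 3.43, 5.81, 4.10 and 3.77 CPM in the obese mice, against 2.57 to 4.41 CPM (median 3.40) in the lean mice (0.16 ± 0.22, adjusted p = 0.653). Of the basement membrane genes, Col4a1 had 975, 1241, 591, 941 and 593 CPM in the obese mice, against 489.8 to 868 CPM (median 736) in the lean mice and was not called (0.31 ± 0.16, adjusted p = 0.164). Col4a2 had 1156, 1456, 649.5, 1087 and 733 CPM in the obese mice, against 538 to 941 CPM (median 768) in the lean mice, overlapping but past the test (0.48 ± 0.16, adjusted p = 0.0272). Col18a1, the source of the fragment endostatin, was tight in both groups, with 220.5, 243, 196, 205 and 199 CPM in the obese mice, against 108 to 166 CPM (median 133) in the lean mice (0.68 ± 0.12, adjusted p = 0.000127). Col15a1, its relative in basement membrane zones, had 564, 495, 388, 472.4 and 648 CPM in the obese mice, against 329.8 to 474.02 CPM (median 405.5) in the lean mice and overlapped (0.37 ± 0.20, adjusted p = 0.181). Col8a1 was higher (1.05, adjusted p = 0.000426); the members not yet named (Col4a3 to Col4a6, Col7a1, Col8a2, Col9a3, Col13a1, Col23a1, Col26a1 and Col28a1) did not pass.

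**Figure D3:**
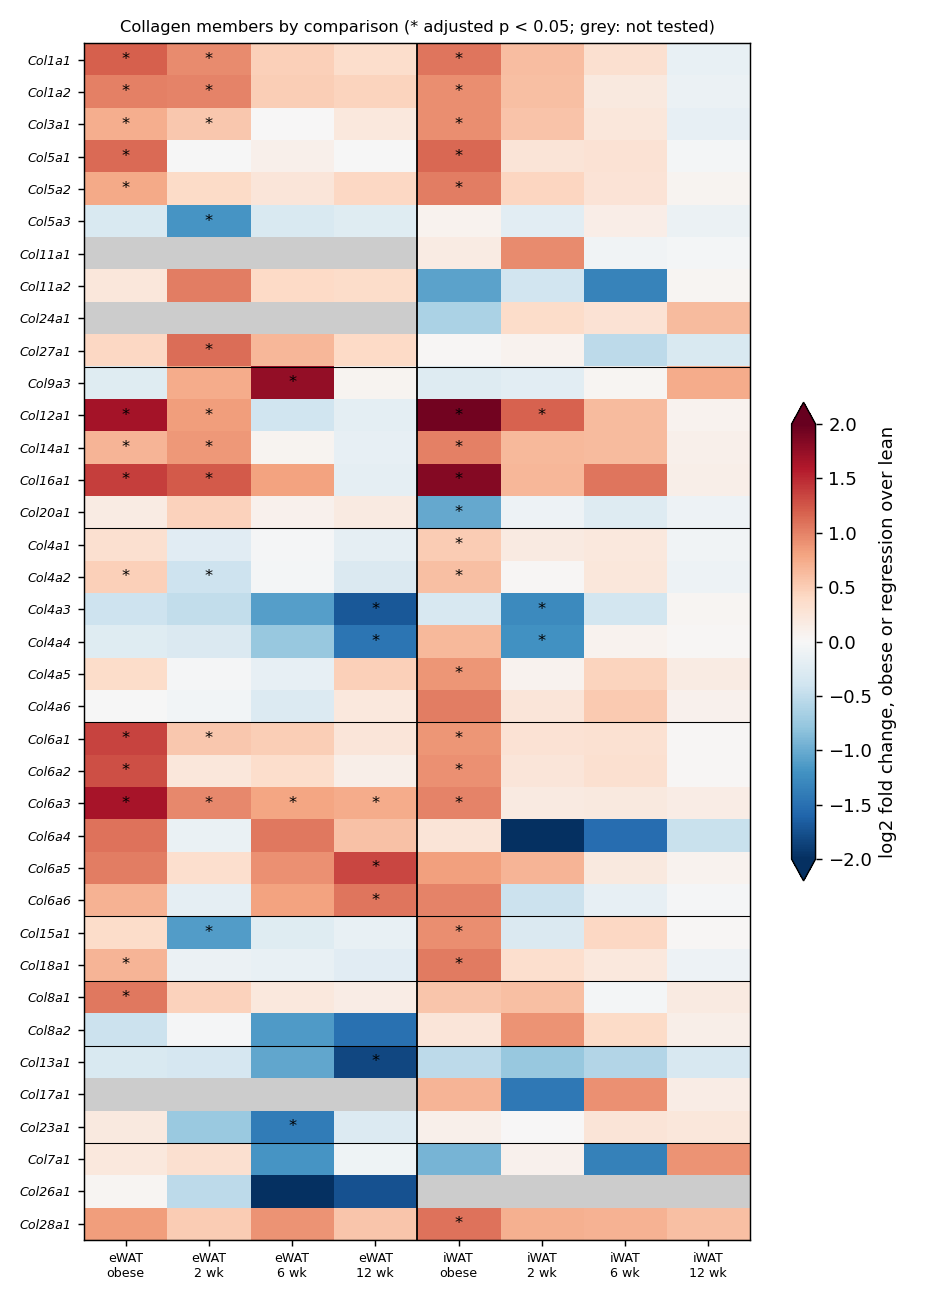
Log2 fold change of every member, obese or regression mice over lean mice of the same age, in obesity and at 2, 6 and 12 weeks in eWAT and iWAT; asterisks mark an adjusted p under 0.05, grey a gene that was no member in that depot or was not tested, and colours end at 2 in either direction. The obesity columns hold the most calls (14 of 34 in eWAT and 18 of 36 in iWAT), and the iWAT columns at 6 and 12 weeks hold 0.

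In iWAT of obese mice 17 of the 36 members were higher and 1 was lower (50%), against 30.2% of all 13899 genes called, 14.7% higher and 15.5% lower. The median log2 fold change was 0.75 over the members and 0.02 over all genes. 13 genes were higher in both depots, which is 13 of the 14 eWAT calls and of the 18 iWAT calls; the eWAT call outside them was Col8a1, and iWAT added Col4a1, Col4a5, Col15a1, Col28a1 and, in the lower direction, Col20a1. In 9 genes every obese mouse exceeded the lean mice (Col3a1, Col5a1, Col5a2, Col6a1, Col6a2, Col6a3, Col12a1, Col16a1 and Col18a1) and in Col20a1 every obese mouse was below them, where 17.0% of all genes did not overlap.

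The fibril chains began from a higher lean level than in eWAT. Col1a1 had 1658, 655, 1292, 1017 and 887 CPM in the obese mice, against 261 to 820.4 CPM (median 528) in the lean mice; 1 obese mouse lay within the lean range (1.07 ± 0.41, adjusted p = 0.0436). Col1a2 overlapped too, with 2090.2, 949, 1977, 1294 and 1314 CPM in the obese mice, against 416.5 to 1123 CPM (median 870.3) in the lean mice (0.93 ± 0.36, adjusted p = 0.0477). Col3a1 had 2962, 1785, 2727, 2103 and 2001 CPM in the obese mice, against 746 to 1612 CPM (median 1228) in the lean mice, without overlap (0.92 ± 0.33, adjusted p = 0.0296). The type V chains were apart as well. Col5a1 had 606, 484, 413.8, 578 and 415.2 CPM in the obese mice, against 171 to 293 CPM (median 226) in the lean mice (1.15 ± 0.23, adjusted p = 0.00026). Col5a2 had 249, 196, 204, 199 and 171 CPM in the obese mice, against 68.4 to 130.4 CPM (median 102) in the lean mice (1.02 ± 0.23, adjusted p = 0.00075). Col5a3 was again not called, with 515, 477.6, 243, 414.5 and 436.02 CPM in the obese mice, against 324 to 607 CPM (median 349.9) in the lean mice (0.08 ± 0.25, adjusted p = 0.86).

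The 3 common type VI chains were apart in all mice. Col6a1 had 973, 644, 733, 719 and 705 CPM in the obese mice, against 300.5 to 515 CPM (median 410.8) in the lean mice (0.88 ± 0.21, adjusted p = 0.0015). Col6a2 had 1027, 825, 703, 906 and 813 CPM in the obese mice, against 350.3 to 570.2 CPM (median 441.03) in the lean mice (0.92 ± 0.22, adjusted p = 0.00158). Col6a3 had 993, 893, 824, 953 and 952 CPM in the obese mice, against 342 to 652 CPM (median 436.4) in the lean mice (0.99 ± 0.24, adjusted p = 0.00181), a narrow range among the obese mice. Of the FACIT genes, Col12a1 had 41.0, 30.4, 23.4, 57.4 and 18.6 CPM in the obese mice, against 5.26 to 17.7 CPM (median 7.99) in the lean mice (1.93 ± 0.40, adjusted p = 0.000334), and Col16a1 had 22.7, 25.1, 16.8, 32.0 and 10.9 CPM in the obese mice, against 3.86 to 9.34 CPM (median 6.09) in the lean mice (1.84 ± 0.37, adjusted p = 0.00026). Both were apart. Col14a1 was higher (1.01, adjusted p = 0.00696). Col20a1 went the other way, with 3.25, 3.27, 3.98, 2.27 and 2.66 CPM in the obese mice, against 4.75 to 8.60 CPM (median 5.82) in the lean mice (-1.02 ± 0.22, adjusted p = 0.000445).

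Of the 6 type IV genes 3 were called, with both multiplexins. Col4a1 had 1046, 1511, 676, 1189 and 744 CPM in the obese mice, against 613 to 1007 CPM (median 672) in the lean mice (0.50 ± 0.18, adjusted p = 0.0353), and Col4a2 had 1066, 1596, 566, 1353 and 729 CPM in the obese mice, against 591 to 958 CPM (median 656) in the lean mice (0.60 ± 0.20, adjusted p = 0.0173). Both overlapped with the lean mice. Col15a1 had 459.7, 589.8, 264, 585 and 553 CPM in the obese mice, against 189 to 400.5 CPM (median 239) in the lean mice, with 1 obese mouse inside the lean range (0.94 ± 0.27, adjusted p = 0.00732). Col18a1 had 289, 241, 279.9, 251 and 183 CPM in the obese mice, against 92.1 to 138 CPM (median 127) in the lean mice, without overlap (1.04 ± 0.20, adjusted p = 0.000119). Col4a5 (0.89, adjusted p = 0.0151) and Col28a1, a collagen known from the sheath of nerves, (1.08, adjusted p = 0.0156) were higher. 

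Marker lists moved with these calls. Of 7 progenitor and fibroblast markers (Pdgfra, Dpp4, Pi16, Cd34, Ly6a, Thy1 and Dcn) 5 were called higher in obese mice in each depot, and of 5 macrophage markers (Cd68, Adgre1, Lyz2, Csf1r and Cd14) all 5. The summed progenitor and fibroblast level in eWAT was 942 to 1736 CPM (median 1582) in obese mice and 921 to 1355 CPM (median 1041) in lean mice. In iWAT it was 2196 to 4496 CPM (median 2655) in obese mice and 872 to 1948 CPM (median 1659.7) in lean mice. The summed macrophage level in eWAT was 635 to 3028 CPM (median 1027) in obese mice and 368 to 477.2 CPM (median 380.0) in lean mice, and in iWAT 763 to 2805 CPM (median 1489.8) in obese mice and 291 to 786 CPM (median 664) in lean mice. Their part in the collagen differences was not tested. Left out 1 library at a time, the eWAT calls of 12 members held; that of Col3a1 was lost without obese replicate 4 (adjusted p = 0.0564) and that of Col4a2 without any of 5 libraries (obese replicates 1, 2 and 4, lean replicates 5 and 6; adjusted p up to 0.152). In iWAT the calls of Col1a1 and Col1a2 held in 3 of 11 such fits (adjusted p up to 0.135 and 0.129), Col4a1 in 4, Col3a1 in 8, Col4a2 and Col4a5 in 9 and Col28a1 in 10, and the other 11 members in all. In the iWAT comparison, leaving out the libraries over 100 CPM of muscle, B cell or skin markers kept 2 obese and 1 lean library and 0 calls; with the muscle and B cell signals as terms 18 were higher and 1 lower.

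After 2 weeks of regression 12 of the 34 members tested in eWAT were called, 9 higher and 3 lower (35.3%). Of all genes 35.7% were called, 18.6% higher and 17.1% lower, so the members' share was near that of all genes. The median log2 fold change was 0.27 over the members and 0.02 over all genes. Of the 14 genes higher in obesity and the 12 called at 2 weeks, 8 were called higher at both (Col1a1, Col1a2, Col3a1, Col6a1, Col6a3, Col12a1, Col14a1 and Col16a1), and Col4a2 was higher in obesity and lower at 2 weeks. Col27a1 joined the higher genes, and Col5a3 and Col15a1 the lower ones. In 4 genes the groups did not overlap (Col6a3, Col14a1 and Col16a1 above, Col5a3 below), where 12.6% of all genes did not.

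The type I chains were spread widely among the regression mice. Col1a1 had 131 to 392.6 CPM (median 282) in the regression mice, against 100.3 to 190.3 CPM (median 125) in the lean mice (0.95 ± 0.21, adjusted p = 0.000458). The regression mice of replicates 1 to 3 had 131, 157 and 215 CPM and those of replicates 4 to 6, which carry another series of mouse numbers, 358, 349.6 and 392.6 CPM. Fitted within a series, the log2 fold change of Col1a1 was 0.11 in the first 3 replicates and 1.59 in the others, that of Col3a1 -0.07 and 1.07, and that of Col6a1 0.05 and 0.97. Col1a2 had 289 to 673 CPM (median 514) in the regression mice, against 199.7 to 312 CPM (median 248) in the lean mice (0.99 ± 0.18, adjusted p = 4.13e-05), with 0.54 and 1.35 within the series. Col3a1 had 368 to 961 CPM (median 690.4) in the regression mice, against 307 to 663 CPM (median 473.3) in the lean mice (0.54 ± 0.20, adjusted p = 0.0296). The call of Col3a1 was lost without any 1 of lean replicates 3, 4 and 6 and regression replicates 4 and 6 (adjusted p up to 0.084). Type I and III chains overlapped between the groups, and the fold changes of Col1a1 and Col3a1 within replicates 1 to 3 were close to 0.

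Col6a3, Col16a1, Col5a3 and Col15a1 differed in the same direction in both series. Col6a3 had 165 to 312 CPM (median 268) in the regression mice, against 109.7 to 156 CPM (median 138) in the lean mice, without overlap (0.96 ± 0.21, adjusted p = 0.000462; 0.57 and 1.27 within the series). Col16a1 had 15.0 to 23.5 CPM (median 20.6) in the regression mice, against 4.22 to 14.7 CPM (median 7.93) in the lean mice, also apart (1.22 ± 0.30, adjusted p = 0.0016; 1.13 and 1.28). Col27a1, a fibril-forming collagen best known from cartilage, had 7.45 to 22.2 CPM (median 16.4) in the regression mice, against 4.12 to 12.3 CPM (median 5.55) in the lean mice (1.12 ± 0.30, adjusted p = 0.00296). Col12a1 rested on 1 mouse: it had 6.88 to 43.0 CPM (median 11.1) in the regression mice, against 4.22 to 12.9 CPM (median 7.77) in the lean mice (0.84 ± 0.30, adjusted p = 0.0266), and the highest value was that of replicate 2. The library of that mouse held 1.32 M counts, the fewest in eWAT (median 8.53 M). Without that library the log2 fold change was 0.36 (adjusted p = 0.264), and without lean replicate 1 or 3 the call was lost too; within replicates 4 to 6 it was -0.08. Col14a1 (0.87, adjusted p = 0.000215) and Col6a1 (0.53, adjusted p = 0.0125) were higher.

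3 genes were lower at 2 weeks, 1 of type V, 1 multiplexin and 1 of type IV. Col5a3 had 132 to 246 CPM (median 172) in the regression mice, against 272 to 506 CPM (median 389.7) in the lean mice, every regression mouse below every lean mouse (-1.19 ± 0.23, adjusted p = 0.000133; -1.42 and -0.98 within the series). Col15a1 had 144 to 255 CPM (median 211) in the regression mice, against 219 to 520 CPM (median 478.5) in the lean mice (-1.12 ± 0.19, adjusted p = 2.65e-05; -1.16 and -1.07). The overlap came from 1 lean mouse, replicate 4 at 219 CPM. Col4a2 had 456.7 to 680.5 CPM (median 580.1) in the regression mice, against 548 to 899.6 CPM (median 793) in the lean mice (-0.42 ± 0.16, adjusted p = 0.0323), and Col4a1 had 424.7 to 731 CPM (median 522) in the regression mice, against 464.9 to 789.7 CPM (median 653) in the lean mice, which was not called (-0.22 ± 0.16, adjusted p = 0.293). The call of Col4a2 held in 5 of 12 fits with 1 library left out (adjusted p up to 0.104). Summed macrophage markers in eWAT were 824 to 2749.7 CPM (median 2386) in regression mice and 348 to 571 CPM (median 435.1) in lean mice, with 5 of 5 called higher. Progenitor and fibroblast markers were 1651 to 2909.7 CPM (median 2102) in regression mice and 939 to 1336 CPM (median 1236) in lean mice, with 3 of 7 called higher. Adipocyte markers were 11252 to 19373 CPM (median 13286) in regression mice and 13087 to 17385 CPM (median 15352) in lean mice, with 2 of 5 called lower. Endothelial markers were 853 to 1054 CPM (median 971) in regression mice and 709 to 888 CPM (median 753) in lean mice, with 2 of 5 called higher. The part of these lists was not tested. Without libraries holding 20 CPM or more of ciliated epithelium genes, 2 regression and 3 lean libraries were left, and 5 members were called, 1 higher and 4 lower.

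**Figure D4:**
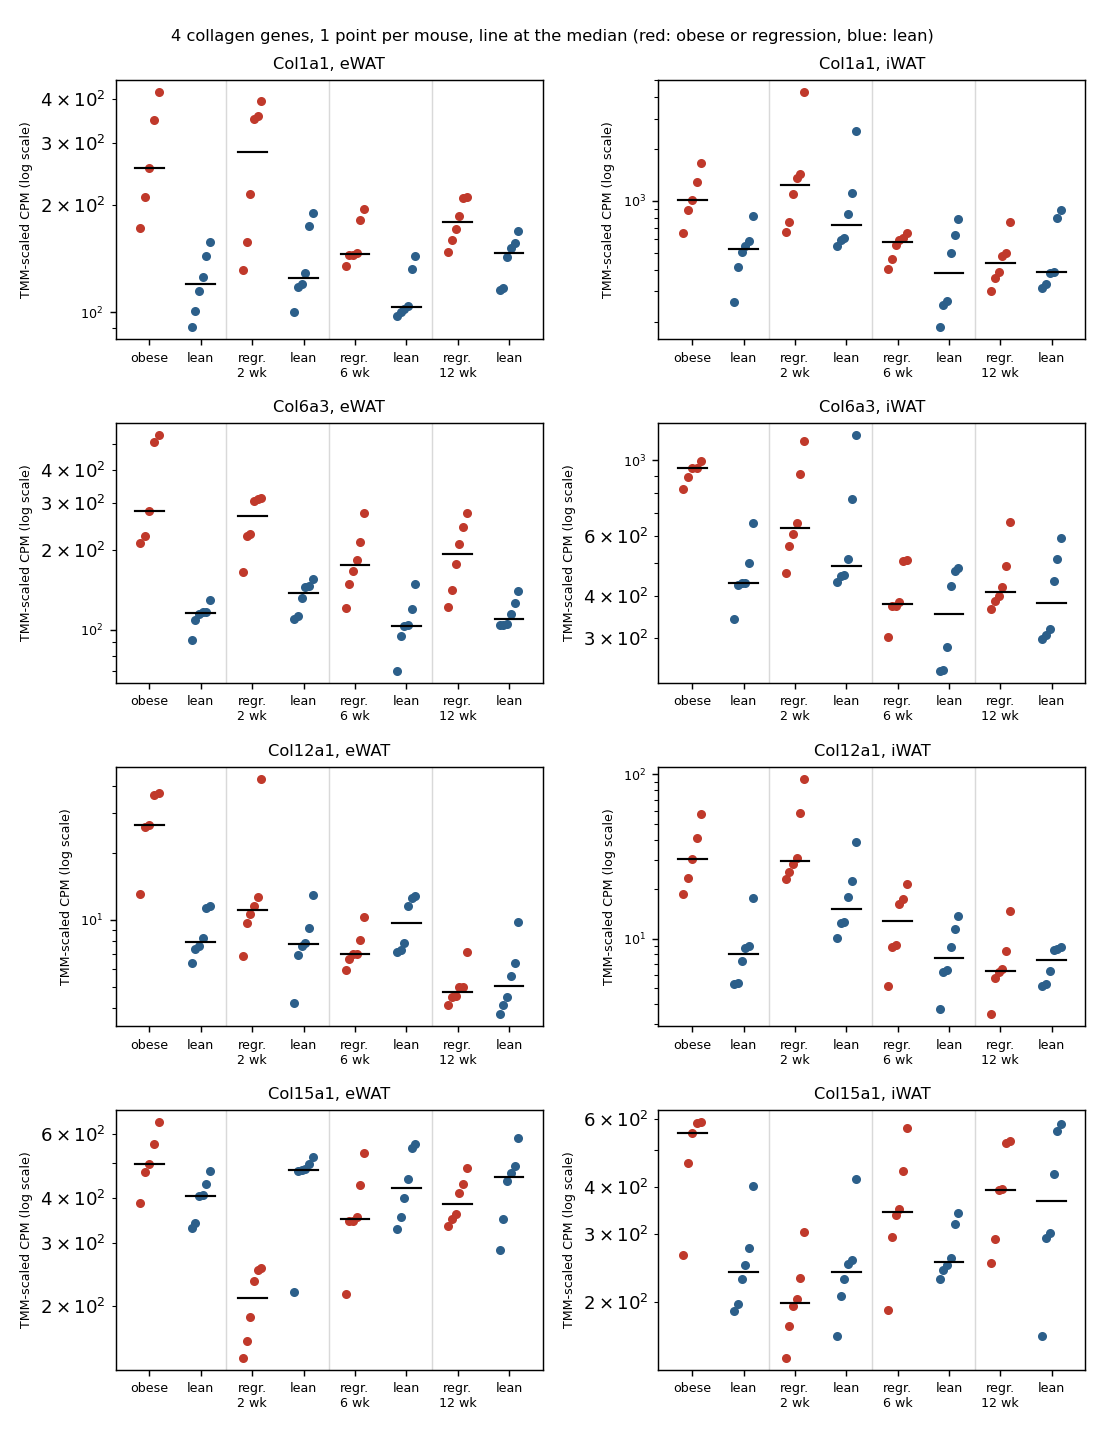
Level in each mouse (TMM-scaled CPM, log axis) of Col1a1, Col6a3, Col12a1 and Col15a1 in eWAT and iWAT, obese or regression mice (red) left of lean mice (blue) in obesity and at 2, 6 and 12 weeks, with a line at the median. In eWAT at 2 weeks Col6a3 stands above the lean mice (165 to 312 against 109.7 to 156 CPM), and Col15a1 lies below all but 1 of them (144 to 255 against 219 to 520 CPM).

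In iWAT at 2 weeks 3 of the 36 members were called, 1 higher and 2 lower (8.33%), against 18.8% of all genes, 9.44% higher and 9.37% lower. The median log2 fold change was 0.21 over the members and -0.00 over all genes. Col12a1 had 23.1 to 94.4 CPM (median 29.8) in the regression mice, against 10.1 to 38.8 CPM (median 15.2) in the lean mice (1.18 ± 0.38, adjusted p = 0.0247; 0.45 and 1.74 within the series). Col4a3 had 0.236 to 1.46 CPM (median 1.39) in the regression mice, against 1.68 to 4.88 CPM (median 2.59) in the lean mice and was the 1 gene without overlap, where 4.63% of all genes did not overlap (-1.28 ± 0.29, adjusted p = 0.00207). Its neighbour Col4a4, whose start lies beside it in the sequence above, had 0.215 to 2.77 CPM (median 1.56) in the regression mice, against 2.64 to 4.65 CPM (median 3.57) in the lean mice (-1.204 ± 0.27, adjusted p = 0.0016). Col1a1 had 662 to 4304 CPM (median 1231) in the regression mice, against 549 to 2549 CPM (median 725) in the lean mice, an overlap over most of the range, and was not called (0.62 ± 0.39, adjusted p = 0.273). Col5a3, with 221 to 359 CPM (median 257) in the regression mice, against 227 to 474.2 CPM (median 307) in the lean mice (-0.21 ± 0.24, adjusted p = 0.553), and Col15a1, with 142 to 303 CPM (median 199) in the regression mice, against 162 to 417.7 CPM (median 239) in the lean mice (-0.29 ± 0.26, adjusted p = 0.452), were not called.

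1 lean library decided this count. Lean replicate 1 held the highest share of collagen counts of its group, and without it 13 members were called, 11 higher (Col28a1, Col12a1, Col5a2, Col8a1, Col1a1, Col1a2, Col18a1, Col3a1, Col6a1, Col16a1 and Col8a2) and 2 lower (Col4a3 and Col4a4). Col1a1 then had a log2 fold change of 1.11 (adjusted p = 0.0369). Fitted within replicates 1 to 3 the count was 0 higher and 1 lower, and within replicates 4 to 6 it was 8 higher and 2 lower. Summed progenitor and fibroblast markers were 2624 to 5472 CPM (median 3199.6) in regression mice and 1702 to 2991 CPM (median 2432) in lean mice, with 0 of 7 markers called. Macrophage markers were 1426 to 2984 CPM (median 1612) in regression mice and 749 to 1937 CPM (median 1095) in lean mice, with 1 of 5 called higher. Schwann cell markers were 277 to 542 CPM (median 351) in regression mice and 161 to 271 CPM (median 213) in lean mice, with 2 of 4 called higher. These sums did not overlap, but the gap was small and they refer to library totals without TMM scaling. The part of these lists was not tested. With runs of neighbouring mouse numbers as a random block in limma, Col4a4 alone was called (adjusted p = 0.0106). The call of Col12a1 was lost without lean replicate 3 or 6 or regression replicate 4 or 5 (adjusted p up to 0.141).

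At 6 weeks the members' calls were few. In eWAT 3 of 34 were called, 2 higher and 1 lower (8.82%), against 7.58% of all genes, 5.56% higher and 2.02% lower; 14 had an unadjusted p under 0.05, and DESeq2 called 7. Col6a3 had 121 to 276 CPM (median 175) in the regression mice, against 70.0 to 149 CPM (median 104) in the lean mice (0.79 ± 0.21, adjusted p = 0.0167), with overlap. Col9a3, a FACIT chain known from cartilage, had 0.670 to 1.36 CPM (median 0.985) in the regression mice, against 0.130 to 0.613 CPM (median 0.220) in the lean mice (1.76 ± 0.47, adjusted p = 0.0184); the groups were apart at levels close to the limit of a member. Col23a1, a transmembrane collagen, had 9.29 to 18.9 CPM (median 10.7) in the regression mice, against 13.9 to 112 CPM (median 14.7) in the lean mice (-1.40 ± 0.38, adjusted p = 0.019). The lean value of 112 CPM came from replicate 5, and without that library the log2 fold change was -0.32 (adjusted p = 0.457). That library also held 6066 CPM of duct markers and 4117 CPM of pericyte and smooth muscle markers; their part was not tested. Beside Col9a3, Col1a2 did not overlap between regression and lean mice (2 genes, against 3.07% of all genes) and was not called (0.50, adjusted p = 0.0688). Without regression replicate 6, 0 members were called; without lean replicate 6 or regression replicate 3 there were 5, and without lean replicate 2 or regression replicate 4 there were 6. The call of Col6a3 was also lost without lean replicate 3 (adjusted p up to 0.0906). With runs of neighbouring mouse numbers as a random block in limma 0 members were called, and Col6a3 stood at 0.78 (adjusted p = 0.0938). Macrophage markers were 573 to 3059 CPM (median 1365) in regression mice and 347 to 541 CPM (median 489) in lean mice, without overlap and with 4 of 5 called higher. Progenitor and fibroblast markers were 1368 to 2634 CPM (median 1926) in regression mice and 999 to 1491 CPM (median 1274) in lean mice, with 3 of 7 called higher; the part of either list was not tested. In iWAT edgeR called 0 of 36 at 6 weeks (6 at an unadjusted p under 0.05; DESeq2 0), against 1.04% of all genes, and 0 genes were apart (2.49% of all genes).

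At 12 weeks 3 type VI genes were the higher ones in eWAT. Of 34 members 3 were higher and 3 lower (17.6%), against 15.3% of all genes, 10.8% higher and 4.51% lower. The members' share was thus near that of all genes. In 0 members were the groups apart (1.61% of all genes). Col6a3 had 121 to 276 CPM (median 193) in the regression mice, against 104 to 140.1 CPM (median 109.8) in the lean mice (0.75 ± 0.21, adjusted p = 0.0124). Col6a5 had 80.9 to 408.1 CPM (median 307) in the regression mice, against 75.2 to 143 CPM (median 111) in the lean mice (1.33 ± 0.42, adjusted p = 0.0251). Col6a6 had 19.5 to 66.7 CPM (median 48.1) in the regression mice, against 15.0 to 32.5 CPM (median 20.8) in the lean mice (1.06 ± 0.28, adjusted p = 0.00931). In each of the 3 genes the groups overlapped, and for Col6a5 and Col6a6 the lowest regression mouse lay below the lean median. Col6a1 (0.24, adjusted p = 0.309) and Col6a2 (0.11, adjusted p = 0.731), which assemble with Col6a3, did not pass. Col6a3 was the 1 member called in eWAT at all 4 times, with log2 fold changes of 1.65, 0.96, 0.79 and 0.75 at 0, 2, 6 and 12 weeks. Its call at 6 weeks was lost with the random block and without libraries over 20 CPM of ciliated epithelium genes. Within either mouse series it was called neither at 6 nor at 12 weeks. Macrophage markers were called at 12 weeks (5 of 5), with 521 to 3439 CPM (median 2466) in regression mice and 310.3 to 783 CPM (median 431.3) in lean mice, and progenitor and fibroblast markers (2 of 7) were 1347 to 2708 CPM (median 2189) in regression mice and 825 to 1555 CPM (median 1303) in lean mice. Their part was not tested.

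3 genes were lower at 12 weeks, and the signal of ciliated epithelium is set beside them. Col4a3 had 1.57 to 11.3 CPM (median 2.47) in the regression mice, against 6.02 to 16.02 CPM (median 12.6) in the lean mice (-1.69 ± 0.49, adjusted p = 0.0162). Col4a4 had 2.80 to 11.3 CPM (median 3.75) in the regression mice, against 6.17 to 18.7 CPM (median 14.4) in the lean mice (-1.47 ± 0.46, adjusted p = 0.027). Col13a1, a transmembrane collagen, had 0 to 1.94 CPM (median 0.287) in the regression mice, against 0.816 to 2.67 CPM (median 1.68) in the lean mice (-1.82 ± 0.64, adjusted p = 0.0475). In each the highest regression mouse was replicate 3. The 5 ciliated epithelium genes summed to 0.284 to 353 CPM (median 0.933) in regression mice, where the highest library was again replicate 3, and to 40.1 to 397.5 CPM (median 231) in lean mice. With the ciliated and duct signals as terms, the log2 fold change was -0.50 for Col4a3 (adjusted p = 0.242), -0.18 for Col4a4 (0.721) and -1.03 for Col13a1 (0.233). In the same fit Col6a3 stood at 0.66 (0.0854) and Col6a6 at 0.98 (0.0641), both no longer called, and 2 members were called, both higher. Of the 12-week libraries, 5 of 6 regression and 0 of 6 lean ones held less than 20 CPM of the ciliated genes. Signal and group thus went nearly together, so this fit cannot tell them apart. Left out 1 at a time, 6 libraries moved the count of 6 calls beyond 1.5 times: it was 10 without regression replicate 3, 3 without regression replicate 1 or 5 or lean replicate 2, 2 without regression replicate 4 and 1 without regression replicate 2. The call of Col13a1 held without replicate 3 alone (1 of 12 fits), those of Col4a4 in 5, Col6a5 in 7, Col4a3 in 9, Col6a3 in 11 and Col6a6 in 12. Every lean library at 12 weeks held over 20 CPM of these genes, so no comparison without such libraries could be made.

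**Figure D5:**
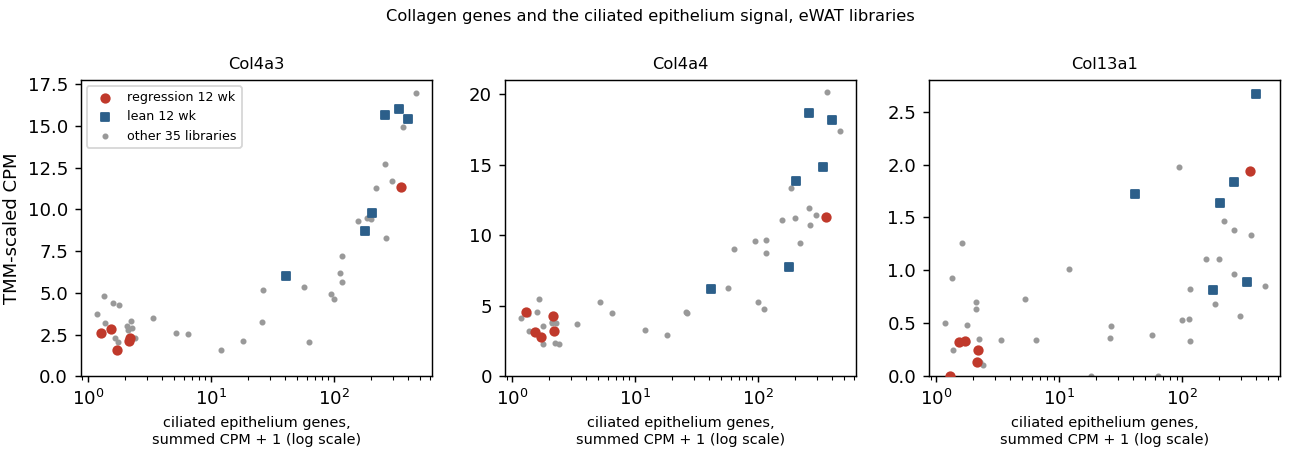
Level of Col4a3, Col4a4 and Col13a1 (TMM-scaled CPM, linear axis) against the summed level of 5 ciliated epithelium genes (CPM plus 1, log axis) in each of the 47 eWAT libraries, with regression mice of 12 weeks as red circles, lean mice of 12 weeks as blue squares and the other 35 libraries as grey points. The 12-week lean mice, at 40.1 to 397.5 CPM of these genes, lie to the right, and of the regression mice replicate 3 alone, at 353 CPM, lies among them.

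In iWAT at 12 weeks edgeR called 0 of 36 members (0 at an unadjusted p under 0.05; DESeq2 0), against 0.0288% of all genes, and 0 were apart (0.662% of all genes). Col1a1 had 301 to 757 CPM (median 435.5) in the regression mice, against 311 to 881 CPM (median 385) in the lean mice (-0.15 ± 0.39, adjusted p = 0.895), and Col12a1 had 3.44 to 14.7 CPM (median 6.35) in the regression mice, against 5.13 to 8.85 CPM (median 7.43) in the lean mice (0.06 ± 0.40, adjusted p = 0.96). Regression and lean mice overlapped in both genes. The log2 fold changes of Col6a1, Col6a2 and Col6a3 were 0.03, 0.02 and 0.14.

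Whether the difference from lean mice had changed since obesity was tested as a contrast of the differences. In eWAT 6 of 34 members were called at 2 weeks, all lower than in obesity, against 5.82% of all genes, 3.74% lower. These were, on the log2 scale, Col15a1 (-1.48, adjusted p = 0.00074), Col5a1 (-1.15, adjusted p = 0.00264), Col6a2 (-1.06, adjusted p = 0.0226), Col4a2 (-0.91, adjusted p = 0.0114), Col6a1 (-0.83, adjusted p = 0.0356) and Col18a1 (-0.80, adjusted p = 0.00306). For Col15a1 and Col4a2 the sign of the estimate turned: the differences from lean mice were 0.37 and 0.48 in obesity and -1.12 and -0.42 at 2 weeks. That of Col15a1 in obesity was not called. With 1 library left out, the calls of Col4a2 held in 6 of 11 fits in obesity and in 5 of 12 at 2 weeks. At 6 weeks Col12a1 (-2.06, adjusted p = 0.00826), Col5a1 (-1.03, adjusted p = 0.0169) and Col18a1 (-0.83, adjusted p = 0.00665) were called, all lower, against 1.21% of all genes, 0.901% lower. At 12 weeks 6 were called, all lower, against 2.32% of all genes, 1.6% lower: Col12a1 (-1.86, adjusted p = 0.0112), Col16a1 (-1.57, adjusted p = 0.0389), Col6a2 (-1.19, adjusted p = 0.0181), Col5a1 (-1.14, adjusted p = 0.00462), Col6a1 (-1.11, adjusted p = 0.00683) and Col18a1 (-0.91, adjusted p = 0.00138). Col6a3 was not called, with -0.69, -0.85 and -0.90, and Col1a1 had -0.25, -0.72 and -0.85. With 1 library left out Col6a1 at 2 weeks held in 10 of 23 fits, Col16a1 at 12 weeks in 8 and Col6a2 at 2 weeks in 21, and the others in all. The 3 contrasts share the obese mice and their lean mice.

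In iWAT Col4a4 was the 1 member called at 2 weeks (-1.86, adjusted p = 0.00368), against 4.0% of all genes, 2.12% lower; its difference from lean mice was 0.65 in obesity, not called, and -1.204 at 2 weeks. At 6 weeks edgeR called 0 (7 at an unadjusted p under 0.05; DESeq2 0), against 1.38% of all genes. At 12 weeks Col12a1 (-1.86, adjusted p = 0.0442), Col16a1 (-1.72, adjusted p = 0.0446), Col5a1 (-1.2, adjusted p = 0.0218) and Col18a1 (-1.13, adjusted p = 0.00998) were called, all lower, against 4.85% of all genes, 2.5% lower. These 4 were also called at 12 weeks in eWAT. With runs of neighbouring mouse numbers as a random block in limma, 0 members were called for the iWAT change (adjusted p from 0.0595 for Col18a1 to 0.26 for Col16a1). With replicate number as a block Col16a1 lost its call in eWAT (adjusted p = 0.0561) and in iWAT (0.0541). Col1a1, at -1.22 (adjusted p = 0.224), and Col6a3, at -0.85 (adjusted p = 0.143), did not pass. With 1 library left out the count at 12 weeks ran from 1 to 7 and moved beyond 1.5 times in 14 of 23 fits; Col12a1 and Col16a1 each held in 8 of them, Col5a1 in 22 and Col18a1 in 23. At 2 weeks it ran from 1 to 4.

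The difference between depots in the response was tested in mice with both depots. In obesity 1 member of 37 differed, Col20a1, whose log2 fold change was higher in eWAT by 1.12 ± 0.27, adjusted p = 0.0204; 1.32% of all genes were called, 0.671% higher. At 2 weeks 5 members differed, 1 higher and 4 lower in eWAT, against 8.42% of all genes, 3.86% higher and 4.56% lower: Col27a1 (1.03, adjusted p = 0.0298), Col5a3 (-1.01, adjusted p = 0.000169), Col15a1 (-0.84, adjusted p = 0.00465), Col4a2 (-0.48, adjusted p = 0.0274) and Col4a1 (-0.45, adjusted p = 0.0465). For Col5a3 the difference from lean mice was -1.19 in eWAT and -0.21 in iWAT, and for Col15a1 -1.12 in eWAT and -0.29 in iWAT. A further fit left out mice whose eWAT held over 100 CPM of duct markers or whose iWAT held over 5000 CPM of muscle or 100 CPM of skin or B cell markers, and kept 32 of 47 mice. In it the difference of Col20a1 was 1.07 (adjusted p = 0.0658), and of the 5 genes at 2 weeks Col5a3 alone passed (-0.97, adjusted p = 0.00844). The others stood at 1.12 for Col27a1 (0.121), -0.80 for Col15a1 (0.062), -0.39 for Col4a2 (0.167) and -0.34 for Col4a1 (0.302). At 6 weeks edgeR called 0 (8 at an unadjusted p under 0.05; DESeq2 3), against 0.597% of all genes, and at 12 weeks 0 (6 at an unadjusted p under 0.05; DESeq2 1), against 0.0542%.

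Chains that assemble together, or that lie in the same fibrils as Col3a1 and Col1a1 do, were compared within a library. The measure was the log2 ratio of their counts, which needs no scaling. Of 48 such comparisons by an exact permutation test (two-sided, Benjamini-Hochberg adjusted) 0 passed an adjusted p of 0.05, and 11 had an unadjusted p under 0.05. 8 of those stood at an adjusted p of 0.052, all in eWAT. With 5 mice against 6 the smallest exact p is 0.00433 and with 6 against 6 it is 0.00216. In obesity the ratio of Col3a1 to Col1a1 averaged 1.42 in obese mice and 1.92 in lean mice (exact p = 0.00433), and that of Col5a1 to Col5a2 1.87 in obese mice and 1.46 in lean mice (exact p = 0.00433); neither overlapped. At 2 weeks the ratio of Col6a3 to Col6a1 averaged -0.69 in regression mice and -1.09 in lean mice (exact p = 0.00216). That of Col6a1 to Col6a2 averaged 0.01 in regression mice and -0.30 in lean mice (exact p = 0.00216), and neither overlapped. The groups overlapped in the rest. Col5a1 to Col5a2 averaged 1.33 in regression mice and 1.70 in lean mice at 2 weeks (exact p = 0.00866), opposite in direction to obesity. Col4a1 to Col4a2 averaged -0.23 in obese mice and -0.06 in lean mice (exact p = 0.00866). At 2 weeks it averaged -0.03 in regression mice and -0.22 in lean mice (exact p = 0.00866). At 6 weeks Col3a1 to Col1a1 averaged 1.45 in regression mice and 1.90 in lean mice (exact p = 0.00649). Without the eWAT libraries over 100 CPM of duct markers, 7 comparisons passed; with 1 library left out, 0 to 9 passed in eWAT, the most without regression replicate 3 at 12 weeks, and 0 or 1 in iWAT.

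The genes that modify, cut, arrange or take up collagen were examined as 4 lists of 46 genes. In eWAT 24 of the 44 tested were higher and 0 lower in obesity, 23 higher and 6 lower at 2 weeks, 15 higher and 0 lower at 6 weeks, and 13 higher and 1 lower at 12 weeks. In iWAT 29 of 46 were higher and 1 lower in obesity, 13 higher and 1 lower at 2 weeks, 1 higher at 6 weeks and 0 at 12 weeks (0 by DESeq2 at 12 weeks). The eWAT count of 15 at 6 weeks was 2, 7 and 9 without regression replicate 6, regression replicate 5 and lean replicate 3. It was 0 with runs of neighbouring mouse numbers as a random block in limma, within either mouse series, and without libraries over 20 CPM of ciliated epithelium genes. The eWAT count of 14 at 12 weeks was 9, 7 and 9 without regression replicates 2, 4 and 5, 9 with the random block, 6 and 0 within the series, and 5 with the ciliated and duct signals as terms. The iWAT count of 14 at 2 weeks was 8 without lean replicate 3 or 5 or regression replicate 5, 7 with the random block, 1 within replicates 1 to 3, and 22 when scaled by library totals alone. The shares of all genes called, given above, were 23.4%, 35.7%, 7.58% and 15.3% in eWAT and 30.2%, 18.8%, 1.04% and 0.0288% in iWAT. The median log2 fold change over the lists was 0.42, 0.36, 0.30 and 0.23 in eWAT and 0.72, 0.38, 0.22 and 0.09 in iWAT.

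Of the 20 genes of hydroxylation, folding and export, 8 of 19 tested were higher in obese eWAT, among them Creb3l1, a transcription factor of secretory load (1.03, adjusted p = 0.000179), the prolyl isomerase Fkbp10 (0.65, adjusted p = 0.000607) and the collagen chaperone Serpinh1 (0.54, adjusted p = 0.0161). At 2 weeks this list was divided in eWAT, 7 higher and 5 lower: Plod2, the lysyl hydroxylase of crosslink sites, was higher (1.2, adjusted p = 9.75e-06), and Serpinh1 (-0.46, adjusted p = 0.0233), the prolyl hydroxylase P3h1 (-0.44, adjusted p = 0.000173), Tmem38b, an ion channel of the endoplasmic reticulum (-0.75, adjusted p = 6.23e-05), Mia3, a cargo receptor for procollagen (-0.30, adjusted p = 0.000186) and the glycosyltransferase Colgalt2 (-0.82, adjusted p = 0.0275) were lower. In iWAT at 2 weeks 11 of 20 were higher and 1 lower, Plod2 (1.31, adjusted p = 9.36e-05) and the prolyl hydroxylase subunit P4ha1 (0.84, adjusted p = 0.00225) among the higher. Of the trimming genes 5 of 7 were higher in obesity in each depot, in eWAT Pcolce2, an enhancer of procollagen cleavage (1.63, adjusted p = 2.13e-07), and the amino-end protease Adamts2 (1.11, adjusted p = 5.08e-05).

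The lists of fibril regulators and of receptors and uptake held calls at each time in eWAT, with 6, 5, 4 and 5 of 9 regulators higher at 0, 2, 6 and 12 weeks and 5, 6, 4 and 4 of 9 receptor and uptake genes. 8 genes were called higher at all 4 times: Lum, Tnxb, Ddr2, Lair1, Ctsk, Fkbp10, Colgalt1 and P3h3. With the random block, within either series or without the libraries of ciliated signal, 0 genes of these lists were called at 6 weeks, so none was called at all 4 times. Lum, a fibril-bound proteoglycan, was at 1.52 (adjusted p = 0.000399) in obesity and 0.99 (adjusted p = 0.0168) at 12 weeks. Ctsk, a lysosomal protease that cuts collagen, was at 2.75 (adjusted p = 0.000484) and 2.62 (adjusted p = 0.00141) at these times, and Lair1, a collagen receptor of immune cells, at 2.81 (adjusted p = 0.000988) and 2.87 (adjusted p = 0.00136). Macrophages also carry Lair1, and the macrophage markers above moved with it; their part was not tested. Mrc2, the endocytic collagen receptor, was higher in obesity in eWAT (2.33, adjusted p = 2.69e-06) and in iWAT (1.81, adjusted p = 1.84e-06). At 6 weeks in iWAT the 1 call was Dpt, a matrix protein of fibrils (0.63, adjusted p = 0.016). Pepd, which splits proline dipeptides, was the 1 lower gene of obese iWAT (-0.59, adjusted p = 0.0177), and Ddr1, a receptor for collagen, that of eWAT at 12 weeks (-0.77, adjusted p = 0.0145).

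The authors' deposited table of DESeq2 results was set beside these calls. In obesity the authors' deposited table held 14 members higher and 0 lower in eWAT, the same 14 as above, and 19 higher and 1 lower in iWAT, 18 of them the same, with Col4a4 and Col6a6 besides. At 2 weeks the authors' deposited table held 10 higher and 3 lower in eWAT, 12 of them the same and Col20a1 besides, and 1 higher and 2 lower in iWAT, all 3 the same. At 6 weeks the authors' deposited table held 5 higher and 2 lower in eWAT, 3 of them the same, with Col1a2, Col6a1, Col6a6 and Col26a1 besides. At 12 weeks the authors' deposited table held the same 3 higher and 3 lower in eWAT, and in iWAT it held 0 members at 6 and 12 weeks.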

How the data were processed

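Poly(A) RNA of eWAT and iWAT from 47 mice was sequenced as paired-end reads, per the labels. Raw counts for each symbol, in whole numbers, are what the authors deposited. STAR 2.4.1c, mm10, R 4.2.2 and DESeq2 1.38.3 appear in the submitters' processing notes; no source used here gives the counting program, its annotation or its strand setting. Per the file headers, the authors' deposited tables hold log2 fold changes with standard errors, p-values, the Wald statistic as a score and, as a signal value, the mean normalised count; the calls in them are set beside those made here.

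The members, the lists of pathway genes and the markers were chosen with earlier results of these data known. The 47 libraries of each depot entered a single edgeR fit (4.0.16, R 4.3.3) with TMM normalization and the default filter on low counts, and obese or regression mice were compared with lean mice of the same time by the two-sided quasi-likelihood test. Calls were made where the adjusted p (Benjamini-Hochberg, over the 14323 genes tested in eWAT or 13899 in iWAT) was under 0.05. Log2 fold changes carry their standard error after ±. The depot difference was fitted over 94 libraries with mouse as a block (14749 genes). Levels of single genes are CPM scaled by TMM. Summed marker levels and shares of counts refer to library totals, without TMM. On that scale the median log2 fold change of all genes was 0.17 and 0.26 in eWAT at 0 and 2 weeks. In iWAT it was 0.26 and 0.16 at these times, so such sums lie higher in obese and regression mice than TMM-scaled levels. Chain ratios used counts plus 0.5. Totals of 1.32 to 34.3 M counts set the precision, and a level of 0.5 CPM is a few counts in most libraries. Between replicates, over genes summing to 20 counts or more, chi-square divided by its degrees of freedom was at least 3.63 in eWAT and 7.11 in iWAT, so each library counted as 1 replicate.

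Levels in every sample, or their range, are given for the chains of types I, III, V and VI, Col4a1, Col4a2, Col15a1, Col18a1, the 3 largest changes in each direction among called members, and members called at all 4 times or for the depot difference in obesity. Scripts were tested on simulated data. Alternatives used DESeq2 1.42.0, limma 3.58.1, SciPy 1.17.1 and pandas 2.3.3 (Python 3.11.15): other scalings, filters and tools, blocks, the mouse number series 3693 to 3728 (replicates 4 to 6) and 3744 to 3785 (replicates 1 to 3), and libraries left out.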

Additional observations from a re-analysis of the deposited data

Results flagged for a closer look

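Of 122 groups of levels given above, 9 (7.38%) were flagged by Dixon's rule. It divides the gap between an end mouse and the next by the range of the group and sets this against a 95% critical value. Chance alone passes that value in about 1 group in 20, and many of these groups share their mice. In iWAT Col5a3 was 243 CPM in obese replicate 3, where the next obese mouse had 414.5 CPM, and 607 CPM in lean replicate 3 at the obesity time, where the next had 408.01 CPM. On the CPM scale printed here the obese mouse falls short of the critical value, so its flag depends on the scale used. Col4a3 was 0.236 CPM in iWAT of regression replicate 5 at 2 weeks, against 1.08 CPM in the next mouse. In eWAT at 2 weeks Col12a1 was 43.0 CPM in regression replicate 2, against 12.7 CPM in the next mouse, and Col15a1 was 219 CPM in lean replicate 4, against 475.1 CPM in the next. The library of regression replicate 2 was the shallowest in eWAT, at 1.32 M counts. In eWAT at 6 weeks Col23a1 was 112 CPM in lean replicate 5, against 17.7 CPM in the next.

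3 of the 9 fell on 1 library, eWAT of regression replicate 3 at 12 weeks, with Col4a3 at 11.3 CPM (next 2.81), Col4a4 at 11.3 CPM (next 4.54) and Col13a1 at 1.94 CPM (next 0.336). That library also held the highest ciliated epithelium signal of its group, 353 CPM.

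The difference from lean mice itself differed between obesity and a later time in 20 tests. In eWAT the log2 change by 2 weeks was -1.48 for Col15a1, -1.15 for Col5a1, -1.06 for Col6a2, -0.91 for Col4a2, -0.83 for Col6a1 and -0.80 for Col18a1. By 6 weeks it was -2.06 for Col12a1, -1.03 for Col5a1 and -0.83 for Col18a1. By 12 weeks it was -1.86 for Col12a1, -1.57 for Col16a1, -1.19 for Col6a2, -1.14 for Col5a1, -1.11 for Col6a1 and -0.91 for Col18a1. In iWAT it was -1.86 for Col4a4 by 2 weeks, and by 12 weeks -1.86 for Col12a1, -1.72 for Col16a1, -1.2 for Col5a1 and -1.13 for Col18a1.

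Between the depots the response differed, eWAT minus iWAT, by 1.12 for Col20a1 in obesity, and at 2 weeks by 1.03 for Col27a1, -1.01 for Col5a3, -0.84 for Col15a1, -0.48 for Col4a2 and -0.45 for Col4a1.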

How the results depend on the processing

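Of the counts and shares recomputed under each alternative, 799 values lay within 1.5 times or 1 SD of those reported and 138 did not. Of the log2 fold changes of single called members, 1859 kept direction and call, 355 kept direction and lost the call, and 2 reversed: within 1 series of mouse numbers in eWAT at 2 weeks, Col12a1 was -0.076 (replicates 4 to 6) and Col3a1 -0.067 (replicates 1 to 3). The cause of the changes below was not tested. Fits on a series or without libraries also held fewer mice.

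Under DESeq2, 7 members were called in eWAT at 6 weeks, 3 for the iWAT change to 2 weeks and 7 for that to 12 weeks, 3 and 1 for the depot difference at 6 and 12 weeks, and 2 pathway genes in iWAT at 6 weeks. Its size factors in edgeR gave 2 for the iWAT change to 2 weeks, and upper quartile scaling 2 there and 2 pathway genes in iWAT at 6 weeks. Library totals alone shifted the median of all genes by 0.17 and 0.26 in eWAT at 0 and 2 weeks and by 0.26, 0.16 and 0.15 in iWAT at 0, 2 and 12 weeks, and the higher share of all called genes was 84.7% instead of 60.2% in obese eWAT and 82.7% instead of 48.6% in obese iWAT. They gave 6 members in iWAT at 2 weeks (4 higher, 2 lower), 2, 1 and 8 for the iWAT changes to 2, 6 and 12 weeks, 2, 3 and 1 for the depot difference at 0, 2 and 6 weeks, and 22 and 2 pathway genes in iWAT at 2 and 6 weeks. Without the count filter the iWAT change to 12 weeks had 2 calls. At an adjusted p under 0.01 there were 0 and 1 calls in eWAT at 6 and 12 weeks and 11 in obese iWAT, and with members of at least 5 CPM 1 in iWAT at 2 weeks. A fit on the compared groups alone gave 1 member and 5 pathway genes in iWAT at 2 weeks and 4 pathway genes at 6 weeks.

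Replicate numbers did not pair the mice, as the correlations of same-numbered mice ran from -0.596 to 0.629 and 0 to 2 of 5 or 6 mice correlated best with their own number. With the replicate block the iWAT change to 2 weeks had 2 calls, and Col16a1 lost its call for both changes to 12 weeks (adjusted p = 0.056 in eWAT, 0.0541 in iWAT), as did Col6a1 for the eWAT change to 2 weeks (0.057), Col23a1 in eWAT at 6 weeks (0.0567), and Col1a1 and Col1a2 in obese iWAT (0.0669 and 0.065). Runs of neighbouring mouse numbers as a random block gave 0 members in eWAT at 6 weeks, 1 in iWAT at 2 weeks and 0 for the iWAT change to 12 weeks, and 0 and 9 pathway genes in eWAT at 6 and 12 weeks and 7 and 0 in iWAT at 2 and 6 weeks. The mouse series as a term gave 2 for the iWAT change to 2 weeks and 2 pathway genes in iWAT at 6 weeks.

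Replicates 1 to 3 alone gave 7 members in obese eWAT, 0 and 0 at 6 and 12 weeks, 3, 0 and 0 for the eWAT changes to 2, 6 and 12 weeks, 1 in iWAT at 2 weeks, and 6 and 0 for the iWAT changes to 2 and 12 weeks. Replicates 4 to 6 alone gave 0 and 0 in eWAT at 6 and 12 weeks, 1, 1 and 3 for the eWAT changes, 4 in obese iWAT, 10 in iWAT at 2 weeks, and 0 and 0 for the iWAT changes to 2 and 12 weeks. In that series the obese group held replicates 4 and 5 only. For the pathway genes replicates 1 to 3 gave 6, 12, 0 and 6 in eWAT over the 4 times and 1 and 0 in iWAT at 2 and 6 weeks, and replicates 4 to 6 gave 0 and 0 in eWAT at 6 and 12 weeks, 10 in obese iWAT and 0 at 6 weeks.

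Without libraries over 100 CPM of organ markers (duct in eWAT; muscle, B cell or skin in iWAT), iWAT kept 1 to 3 libraries a group and 0 members were called in obesity, at 2 weeks and for the changes to 2 and 12 weeks, with 2, 0 and 0 pathway genes at 0, 2 and 6 weeks; in eWAT 7 chain ratios passed. Organ signals as terms, an alternative chosen after seeing the data like the rest of this paragraph, gave 4, 2 and 7 for the iWAT changes and 2 pathway genes at 6 weeks. Without libraries over 5000 CPM of muscle genes there were 2 for the iWAT change to 2 weeks and 0 pathway genes at 6 weeks. Ciliated and duct signals as terms gave 2 members and 5 pathway genes in eWAT at 12 weeks. Without libraries over 20 CPM of ciliated epithelium genes there were 5 members at 2 weeks, 0 at 6 weeks and 9 for the change to 6 weeks, and 14 and 0 pathway genes at 2 and 6 weeks. Without mice over 100 CPM of duct, skin or B cell markers or 5000 CPM of muscle markers the depot difference had 0 and 1 calls at 0 and 2 weeks.

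With 1 replicate left out the members called in eWAT ran from 0 to 6 at 6 weeks and from 1 to 10 at 12 weeks, and in iWAT from 2 to 13 at 2 weeks, 1 to 4 for the change to 2 weeks and 1 to 7 for that to 12 weeks. Pathway genes ran from 2 to 17 and from 7 to 18 in eWAT at 6 and 12 weeks and from 8 to 20 and from 0 to 2 in iWAT at 2 and 6 weeks, and chain ratios from 0 to 9 in eWAT and 0 to 1 in iWAT. Leaving out replicates and the exclusion with muscle at 100 CPM were not run for the depot difference, nor that exclusion for the iWAT ratios. No ratio test was made within a mouse series, where at most 3 mice stand against 3. Depth limits the members near 0.5 CPM, and cages, counting strand and protein are unknown here.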
